A study of Mus musculus with 6 samples.

Results

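The genes described here are 10 that mark or set the identity of epithelial cells: the adhesion molecules Epcam and Cdh1, the ETS factors Elf3 and Ehf, the grainyhead-like factors Grhl1, Grhl2 and Grhl3, the OVO-like zinc finger factors Ovol1 and Ovol2, and the splicing regulator Esrp1. They were picked by symbol from the 27095 gene windows of the study, and all 10 had a window. With TMM scaling only Ehf passed the test between Kat7 knockout and wildtype: its promoter window rose 1.37-fold, while 6.36% of all tested windows rose and 20.2% fell. This call was lost without wildtype library 1 (adjusted p = 0.0905). With scaling by library totals 5 of the 10 rose and 1 fell, where 11.8% of all windows rose and 21.4% fell. Apart from Grhl2, whose window shares bases with another, the promoters of these genes were among the more accessible in the cells, with levels of 53.1 to 275 CPM (counts scaled to 1000000 per library).

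The study used ATAC-seq, in which the transposase Tn5 cuts and tags open DNA, on C57BL/6 medullary thymic epithelial cells sorted as MHCII-high. There were 3 wildtype and 3 Kat7-knockout libraries, 3 biological replicates a group by the series' design text. Kat7 encodes a histone acetyltransferase of the MYST family, and the comparison of knockout with wildtype shows how promoter accessibility differs when it is missing. What drives the deletion, which part of Kat7 is deleted, how old the mice were and whether animals were pooled is not given in the sources used here.

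Epithelial cells are held together by E-cadherin, the product of Cdh1, at adherens junctions, and the factors listed above keep this state in place. GRHL and OVOL proteins bind and open or protect epithelial genes, and OVOL proteins also repress Zeb1, whose product in turn represses Cdh1. ESRP1 sets the epithelial splice forms of many transcripts, and ELF3 and EHF are ETS factors found mainly in epithelia. Thymic epithelium is of endodermal origin and carries EPCAM at its surface, which makes EPCAM a standard marker for sorting these cells.

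The window of Kat7 itself had 291, 238 and 272 CPM in wildtype libraries 1 to 3 and 11.9, 13.2 and 38.3 CPM in knockout libraries 1 to 3 (log2 change -3.66, SE 0.574, adjusted p = 0.0143), a call lost without wildtype library 1 (adjusted p = 0.0643) and without wildtype library 3, while the log2 change stayed between -4.41 and -3.38 without any single library. Library totals were 15482439 to 19832326 counts. CPM are given after scaling each library by its TMM factor, a factor that assumes most windows do not change. This factor was 0.884 in knockout library 1 and 0.984 to 1.06 in the other 5. The windows of 9 genes chosen as marks of these cells, not all of them particular to the mature state, had mean levels of 36.6 to 375 CPM. Foxn1 and Krt5 were higher and Ccr7 lower in knockout. The 6 others, Aire, Fezf2, Cd80, H2-Aa, Cd74 and Tnfrsf11a, did not pass. At Aire (log2 change -0.22) and H2-Aa (-0.27) the highest knockout value was still under the lowest wildtype value. At Tnfrsf11a (0.22) the reverse held. With scaling by library totals 3 of the 9 genes were lower and 3 higher. The median level of 24 markers of thymocytes, B cells and myeloid cells was 4.44 CPM, against 122 CPM for the 9 genes. These markers ranged from 0.224 to 48.4 CPM, so the 2 ranges overlapped, and none was at 0. In a bulk sort, a change in the mixture of cells and a change of accessibility within a cell cannot be told apart.

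Each window covers a gene's start, with about 3000 bases upstream and 2000 downstream, so it holds promoter, first exon and part of the gene body. In mm10 they lie at chr17:87632979-87637979 (Epcam), chr8:106600368-106605368 (Cdh1), chr1:135256472-135261472 (Elf3), chr2:103301196-103306196 (Ehf), chr12:24569287-24574287 (Grhl1), chr15:37230036-37235036 (Grhl2), chr4:135571620-135576620 (Grhl3), chr19:5558575-5563575 (Ovol1), chr2:144330080-144335080 (Ovol2) and chr4:11384783-11389783 (Esrp1). Of the 10, 9 share no base with another window, Grhl2 being the exception.

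Promoter sequence was found for 5 of the 10 genes in the RefSeq table of build GRCm38.p6. None was found for Cdh1, Ehf, Grhl2, Ovol1 and Esrp1, so the promoter of Ehf, the gene that passed, was not searched. The 250 bases before the start of Epcam (chr17:87635729-87635978, plus strand), Elf3 (chr1:135258473-135258722, minus strand) and Grhl3 (chr4:135573633-135573882, minus strand) are shown because they lie inside the counted windows and hold matches to sites of the factors discussed here. They read 5′ to 3′ along the gene. Capitals mark CACCTG or its reverse complement CAGGTG, the E-box known to be bound by SNAI and ZEB repressors, and ACCGGT, the centre of the grainyhead-like site AACCGGTT.
Epcam: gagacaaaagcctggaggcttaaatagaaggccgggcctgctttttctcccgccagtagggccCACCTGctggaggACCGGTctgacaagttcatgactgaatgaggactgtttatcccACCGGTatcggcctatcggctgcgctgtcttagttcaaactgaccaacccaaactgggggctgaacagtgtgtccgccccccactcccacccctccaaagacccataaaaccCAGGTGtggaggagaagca
Elf3: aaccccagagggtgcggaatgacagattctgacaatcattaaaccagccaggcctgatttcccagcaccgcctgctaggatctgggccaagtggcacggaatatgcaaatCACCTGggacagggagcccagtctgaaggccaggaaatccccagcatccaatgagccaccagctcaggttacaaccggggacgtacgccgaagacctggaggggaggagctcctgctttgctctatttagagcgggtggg
Grhl3: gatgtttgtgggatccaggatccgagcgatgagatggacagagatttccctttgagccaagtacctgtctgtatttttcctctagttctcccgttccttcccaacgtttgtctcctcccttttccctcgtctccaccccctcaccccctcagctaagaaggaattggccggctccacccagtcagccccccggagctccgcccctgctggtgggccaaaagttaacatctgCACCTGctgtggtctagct
Epcam had E-boxes 187 and 19 bases upstream of its start and ACCGGT 174 and 131 bases upstream. Elf3 had an E-box 140 bases upstream, and Grhl3 had E-boxes 19 bases upstream and 8 bases downstream, the latter beyond the stretch shown. In windows of 300 bases, 250 before and 50 after the start, the E-box on either strand occurred in 20.2% of 32817 mouse promoters and ACCGGT, which reads alike on both strands, in 2.325%. The promoter of Grhl1 at the counted start held neither. Nor did that of Ovol2, which belongs to a start 718 bases downstream of the one the window is built on. The sequence at the counted start of Ovol2 was not searched. No match to AACCGGTT, to CCGTTA (the OVOL site, either strand; in 2.752% of promoters) or to CCGGAA (an ETS site, either strand; in 14.9%) was found in these 5 promoters. The number of CG dinucleotides in the 300 bases differed more, with 35 in Grhl1, 25 in Ovol2, 12 in Elf3 and in Grhl3 and 11 in Epcam, against a median of 7 over all promoters. These matches describe the letters in the windows and say nothing of binding in these cells.

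Of the 10 windows, 1 rose and none fell in knockout against wildtype (edgeR quasi-likelihood test, Benjamini-Hochberg adjustment over 24817 windows; 1 and 0 also at an unadjusted p under 0.05). Over all tested windows 6.36% rose and 20.2% fell. The median log2 fold change of the 10 was 0.14, with 8 values above 0 and 2 below, and that of all tested windows was 0.04. With loess offsets these medians were 0.075 and 0.015. Every knockout library lay above every wildtype library at 5 of the 10 windows, those of Epcam, Cdh1, Ehf, Grhl3 and Ovol2, and below at none. Over all windows this held for 13.5% above and 24.6% below. The shares over all windows cover every level, while 8 of the 10 lay in the upper quartile of level. No background of like level was used.

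**Figure D1:**
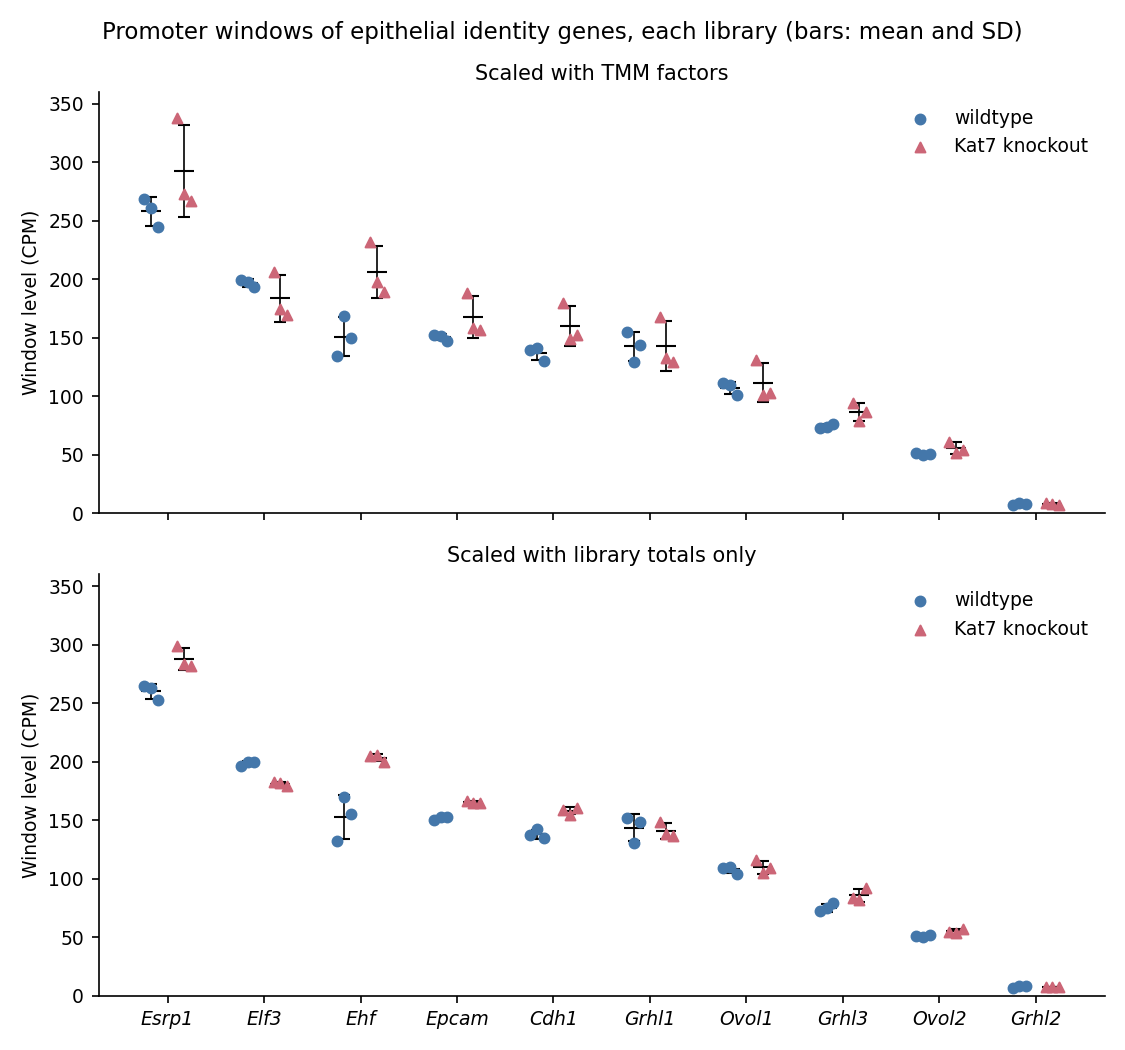
Level of each of the 10 promoter windows in each library, in CPM, with TMM scaling (top) and with library totals only (bottom); circles are wildtype, triangles Kat7 knockout, and bars the mean and SD of 3 libraries. Ehf is higher in knockout on both scales, and knockout library 1 (leftmost triangle) is the highest of its group at all 10 windows in the top panel.

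Neither adhesion gene passed. Epcam, which encodes the surface glycoprotein used to sort epithelia, had 152, 152 and 147 CPM in wildtype libraries 1 to 3 and 188, 158 and 156 CPM in the knockout libraries. The groups did not overlap, but the log2 fold change of 0.16 did not pass (SE 0.125, 95% interval -0.09 to 0.40, adjusted p = 0.391). Cdh1, the E-cadherin gene, had 139, 141 and 130.3 CPM in wildtype and 180, 149 and 152 CPM in knockout. Here too every knockout library was the higher, with a log2 fold change of 0.23 (SE 0.124, interval -0.02 to 0.47, adjusted p = 0.176). Both intervals reach little below 0 and allow a rise of up to 0.40 and 0.47.

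Scaled by library totals alone, the replicates of these 2 genes lay closer together. Epcam then had 149.96, 153 and 152 CPM in wildtype and 166, 165 and 165 CPM in knockout, and Cdh1 had 137, 142 and 135 CPM against 159, 155 and 161 CPM. The spread within the knockout group was 0.533% of the mean for Epcam on this scale and 10.7% with TMM. The first value is below the counting error of 2.05% at the lowest count of Epcam. Within wildtype the spread was greater on library totals than with TMM at Ehf, Grhl2, Grhl3 and Ovol2, and smaller at the other members. On library totals Epcam and Cdh1 passed, with log2 fold changes of 0.12 (adjusted p = 0.0433) and 0.20 (adjusted p = 0.00182). On this scale 5 of the 10 windows rose (Epcam, Cdh1, Ehf, Grhl3 and Esrp1) and 1 fell (Elf3), where 11.8% of all windows rose and 21.4% fell. The share of higher calls among all calls was 23.9% with TMM, 35.6% with library totals and 46.2% with loess offsets, which remove a trend with accessibility.

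Of the 2 ETS factors, Ehf passed and Elf3 did not. Ehf, a factor of glandular and barrier epithelia, had 135, 168 and 150.2 CPM in wildtype and 231, 198 and 189 CPM in knockout. The lowest knockout library lay above the highest wildtype library. Its mean rose from 151 ± 16.9 to 206 ± 22.4 CPM (SD, n = 3 each), or by 0.45 on the log2 scale (SE 0.127, interval 0.20 to 0.70, adjusted p = 0.00219). Without wildtype library 1, the lowest, Ehf did not pass (0.37, adjusted p = 0.0905); this was the highest adjusted p of 14 alternatives, which began at 4.65e-08. Without knockout library 1, the highest, it passed (0.35, adjusted p = 0.000566).

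Elf3, the other ETS factor of the set and an early-response gene of inflamed epithelia, had 199, 197 and 193 CPM in wildtype and 206, 175 and 169.6 CPM in knockout. Knockout library 1 was the highest of all 6 and the other knockout libraries the lowest, so the groups overlapped. The log2 fold change was -0.10 (SE 0.127, interval -0.35 to 0.15, adjusted p = 0.616). Elf3 passed as lower with library totals (-0.13, adjusted p = 0.0304), with loess offsets (-0.23, adjusted p = 0.000175) and without knockout library 1 (-0.20, adjusted p = 0.0238), as it did with limma-voom, and its value was below 0 in all 14 alternatives.

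**Figure D2:**
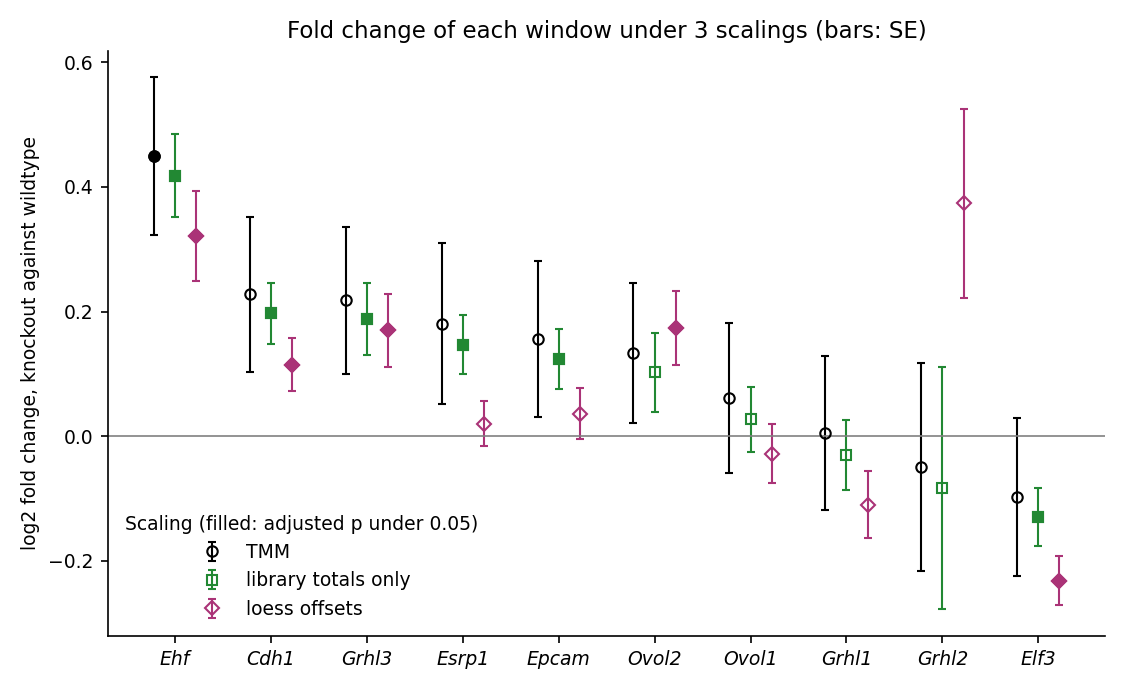
Log2 fold change of knockout against wildtype for each window under TMM, library totals only and loess offsets; bars are the standard error and filled points have an adjusted p under 0.05. Ehf is filled under all 3 scalings, Elf3 is below 0 under all 3, and Grhl1, Grhl2 and Ovol1 change sign between scalings.

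The grainyhead-like genes encode factors that guard barrier epithelia, and none of the 3 passed. Grhl3, which drives closure and repair of the epidermis, had 73.2, 73.9 and 76.4 CPM in wildtype and 94.4, 78.5 and 86.9 CPM in knockout, with no overlap. Its log2 fold change was 0.22 (SE 0.117, interval -0.01 to 0.45, adjusted p = 0.17), and it passed with library totals (0.19, adjusted p = 0.0121) and loess offsets (0.17, adjusted p = 0.0289). Grhl1, a regulator of desmosomal cadherins, had 154, 129 and 144 CPM in wildtype and 168, 133 and 129 CPM in knockout. Its groups overlapped widely, and its log2 fold change of 0.01 (SE 0.124, interval -0.24 to 0.25) had no stable sign, being below 0 in 8 of 14 alternatives.

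Grhl2, an activator of Cdh1 and of claudin genes, stood far below its relatives, with 7.02, 8.50 and 7.97 CPM in wildtype and 8.31, 7.53 and 6.79 CPM in knockout. Its window (chromosome 15, 37230036 to 37235036, mm10) shares 3116 of 5001 bases (62.3%) with that of an unnamed gene model on the other strand. The shared stretch holds the start of Grhl2 itself, and the unshared 1885 bases lie 901 to 2785 bases upstream of it. Over the whole table, windows that share over 50% of their bases had a median of 18.2 counts per library, those that share none a median of 224, and those wholly inside others a median of 0. The unnamed partner was as low, with 98 to 155 counts per library. Of the 476 windows wholly inside others both quartiles were 0 as well. How reads in shared bases were assigned is not stated, so it is not known how much of the window around the start of Grhl2 its count covers. If such reads were left out, the count covers only the unshared bases upstream and not the start of Grhl2. Its level, fold change and ratios have the same limit. Its log2 fold change was -0.05 (SE 0.166, interval -0.38 to 0.28, adjusted p = 0.862) on 111 to 145 counts per library, and 0.37 with loess offsets (adjusted p = 0.0613).

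The OVO-like factors hold epithelial cells back from a mesenchymal state. Ovol1 had 111, 109 and 101 CPM in wildtype and 131, 101 and 103 CPM in knockout, and its groups overlapped (log2 fold change 0.06, SE 0.121, interval -0.18 to 0.30). Ovol2 had 51.4, 49.98 and 50.6 CPM in wildtype and 61.2, 51.6 and 53.8 CPM in knockout. Every knockout library was above the wildtype libraries, though knockout library 2 by only a little, and the value of 0.13 did not pass (SE 0.112, interval -0.09 to 0.35, adjusted p = 0.415). It passed with loess offsets (0.17, adjusted p = 0.0281). Ovol1 lay below 0 in 4 of 14 alternatives.

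Esrp1 had the most accessible window of the set, higher than 99.3% of tested windows. It had 269, 261 and 245 CPM in wildtype and 338, 273 and 267 CPM in knockout. Knockout library 3 fell just under wildtype library 1, so the groups overlapped, and the log2 fold change of 0.18 did not pass (SE 0.129, interval -0.07 to 0.43, adjusted p = 0.327). With library totals the groups parted (265, 263 and 253 CPM against 299, 283 and 282 CPM), and it passed at 0.15 (adjusted p = 0.0147).

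All windows of the set were 5001 bases long, so their levels can be ordered. In wildtype Esrp1 (258 ± 12.3 CPM) stood above Elf3 (197 ± 3.24 CPM), followed by Ehf (151 ± 16.9 CPM), Epcam (150.5 ± 2.65 CPM), Grhl1 (143 ± 12.7 CPM) and Cdh1 (137 ± 5.63 CPM). The wildtype ranges of Ehf, Epcam and Grhl1 overlapped each other, so these 3 did not differ beyond the spread of the libraries; Cdh1 lay below Epcam and overlapped Ehf and Grhl1. Below these came Ovol1 (107 ± 5.46 CPM), Grhl3 (74.5 ± 1.68 CPM), Ovol2 (50.6 ± 0.714 CPM) and Grhl2 with its shared window (7.83 ± 0.750 CPM), whose wildtype ranges did not touch each other. In knockout the range of Ehf lay wholly above that of Epcam and overlapped that of Elf3. The median of all tested windows was 10.1 CPM, and 8 of the 10 lay in the upper quartile.

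Knockout library 1 was the highest of its group at 10 of 10 windows with TMM and at 5 of 10 with library totals. Its part in the calls was not tested beyond leaving it out, which gave 1 higher window (Ehf) and 1 lower (Elf3); without it 12.6% of all windows rose and 22.6% fell. The calls among the 10 were set beside those of all windows under each alternative. Ehf alone passed, and none fell, with DESeq2 size factors in edgeR (7.64% of all windows higher, 18.1% lower), with DESeq2 (7.73% and 16.8%), without a filter on low counts (7.05% and 20.6%) and with the replicate number as a block (11.4% and 22.3%). The same held without wildtype library 2 (7.42% and 20.9%) or 3 (4.41% and 18.2%) and without knockout library 2 (4.34% and 16.9%) or 3 (6.14% and 18.9%). Without wildtype library 1 none passed (2.73% and 17.6%). Loess offsets gave 4 higher and 1 lower of the 10 (17.4% and 20.3%), limma-voom with sample weights 2 higher and 1 lower (19.1% and 27.5%) and a minimum mean count of 50 gave 6 higher and none lower (23.3% and 29.2%). Ordered by library totals, every knockout library lay above every wildtype library at 6 windows and below at 1, against 16.9% and 27.0% of all windows. The standard errors of the 10 were 0.112 to 0.166 with TMM and 0.0468 to 0.194 with library totals.

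**Figure D3:**
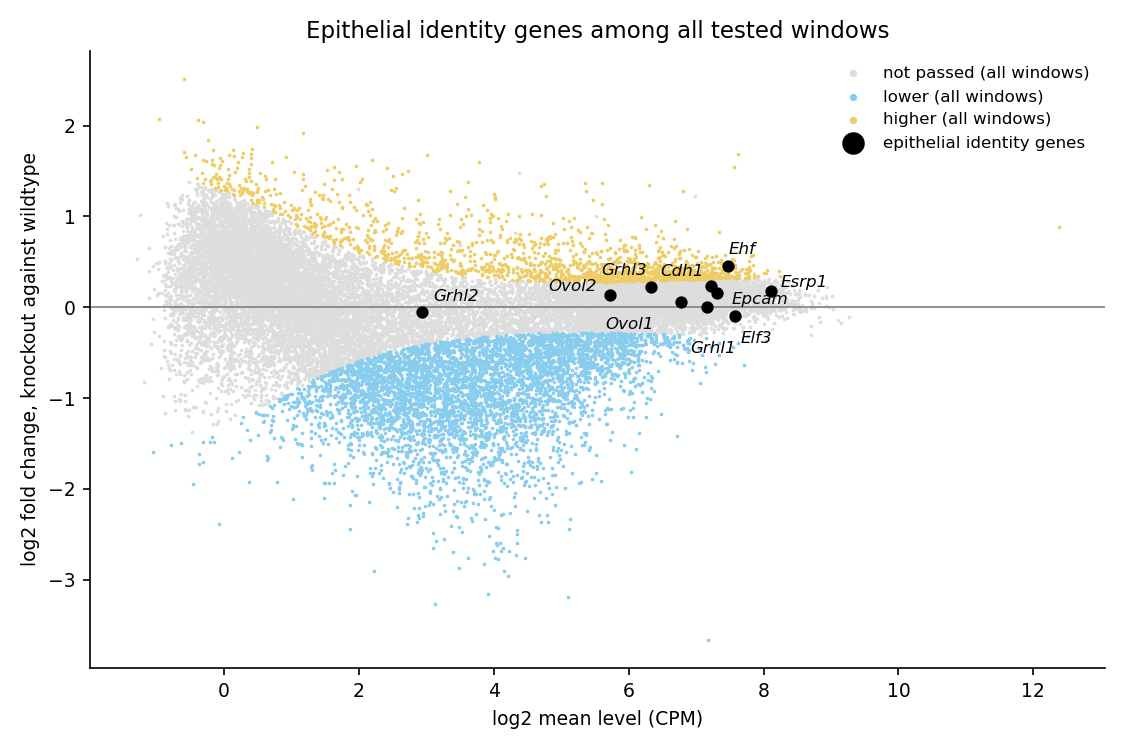
Log2 fold change against mean level (log2 CPM) for 24817 tested windows, with the epithelial identity genes in black. Ehf lies in the band of higher calls, the other open windows of the set lie between the bands at small positive or negative values, and Grhl2 lies at a level near that of the median window.

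Ratios between related genes within a library do not depend on any scaling that multiplies a whole library by 1 factor, such as TMM or library totals. Loess offsets act by level, and with them the fitted log2 fold changes were 0.17 for Grhl3, 0.37 for Grhl2 and -0.11 for Grhl1, so that the order of Grhl2 against both others turned. The count of Ehf was 0.675, 0.852 and 0.778 times that of Elf3 in wildtype libraries 1 to 3 and 1.12, 1.13 and 1.12 times in knockout. Ehf was thus the lesser of the pair in every wildtype library and the greater in every knockout library. The log2 ratio differed by 0.55 (SE 0.0981; exact two-sided permutation p = 0.1, the smallest that 3 against 3 allows; adjusted p = 0.2 over 6 pairs). The ratio of Cdh1 to Epcam moved by 0.07 (SE 0.0257), with no overlap and the same p. Grhl3 against Grhl2 moved by 0.27 (SE 0.114; exact p = 0.1, adjusted p = 0.2), again without overlap. Grhl3 against Grhl1 (0.21, SE 0.111), Ovol2 against Ovol1 (0.08, SE 0.0649) and Grhl2 against Grhl1 (-0.05, SE 0.164) overlapped between groups, with exact permutation p-values of 0.2, 0.2 and 0.8. No pair could reach 0.05 in this design.

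**Figure D4:**
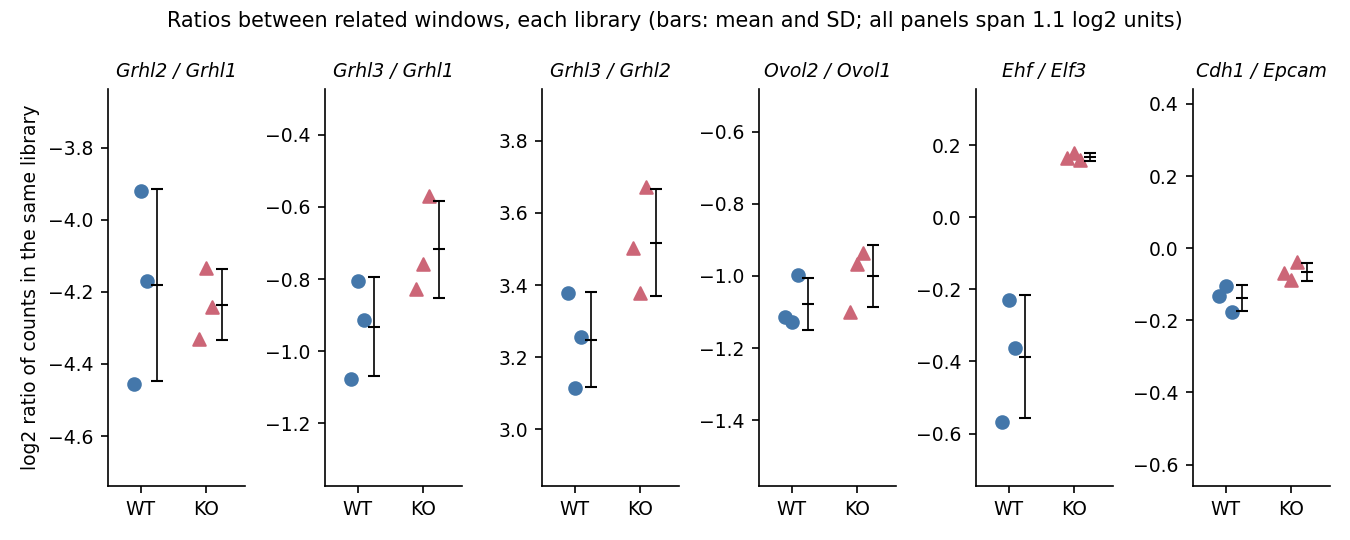
Log2 ratio of the counts of related genes in the same library, wildtype (WT, circles) and Kat7 knockout (KO, triangles), with mean and SD of 3 libraries; the panels have axes of equal span. The ratio of Ehf to Elf3 is 0.675 to 0.852 in wildtype and 1.12 to 1.13 in knockout, and its 3 knockout values nearly coincide.

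The change at Ehf was not seen at the next windows on its chromosome. A930006I01Rik, 69.6 kb away, did not pass (3.44 ± 0.450 CPM in wildtype, 2.46 ± 0.399 CPM in knockout, log2 change -0.48, adjusted p = 0.226), and Pdhx, 229.7 kb away on the other side, had too few counts to test. Of the 20 nearest named windows on either side of the 10 genes, 17 could be tested. Where 6.36% of all tested windows rose and 20.2% fell, none of the 17 rose and 2 fell. These were 1110028F18Rik, 16.2 kb from Cdh1 (16.7 ± 0.607 to 11.9 ± 1.08 CPM, a log2 change of -0.49, adjusted p = 0.00111), and Gpr37l1, a receptor gene 90.8 kb from Elf3 (8.59 ± 0.491 to 6.21 ± 1.04 CPM, -0.47, adjusted p = 0.0237). Neither passed with loess offsets (-0.09 and -0.06), and Gpr37l1 also did not pass in 4 of the 6 fits without a single library (-0.61 to -0.39 over all 6). Ap5b1, 6.50 kb from Ovol1, had a log2 fold change of 0.06 and did not pass.

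The windows with the profile most like that of Ehf were those of Tnfsf15, Serpina3h and Zfp36l1. Likeness was the root mean square difference over the 6 libraries of log2 CPM less the wildtype mean, among 12203 windows of at least 10 CPM, and it was 0.0216, 0.0222 and 0.0288. Tnfsf15, a TNF family ligand gene, had 46.7, 58.2 and 51.8 CPM in wildtype and 79.7, 67.9 and 67.8 CPM in knockout. The order of libraries, which the choice by likeness favours, was the same as at Ehf, with wildtype library 1 lowest and knockout library 1 highest. Serpina3h, a serine protease inhibitor gene (77.9 ± 8.23 to 105.9 ± 9.76 CPM), and Zfp36l1, an RNA-binding regulator of transcript decay (158 ± 22.3 to 215 ± 21.4 CPM), shared that order.

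The nearest family relatives moved in part. Of 9, 2 rose and 1 fell, with a median of 0.04, where 6.36% of all tested windows rose and 20.2% fell. Ovol3, the least studied OVO-like gene, rose from 6.82 ± 1.65 to 17.7 ± 1.34 CPM (log2 change 1.38, SE 0.143, adjusted p = 2.28e-20), a change that kept its call in all 14 alternatives. Its window shares bases with that of Tbcb, and how reads in shared bases were assigned is not stated. It is thus not known which part of the window the Ovol3 count covers. Esrp2, the partner of Esrp1 in epithelial splicing, rose from 36.4 ± 5.58 to 48.4 ± 4.29 CPM (0.42, adjusted p = 0.00124) in a window that overlaps 1810019D21Rik. Tfcp2l1, a relative of the grainyhead-like factors with a role in kidney and salivary ducts, fell from 62.1 ± 4.64 to 48.2 ± 4.89 CPM (-0.37, adjusted p = 0.00591). Cdh3, the P-cadherin gene (0.04), did not pass, and nor did the ETS genes Elf5 (-0.30, adjusted p = 0.344) and Spdef (0.03).

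Of 34 junction and barrier genes, several of them known targets of GRHL factors, 4 rose and 2 fell, with a median of 0.13. Over all tested windows 6.36% rose and 20.2% fell. Krt18, a keratin of simple epithelia, rose from 41.1 ± 1.78 to 56.4 ± 4.87 CPM (log2 change 0.46, adjusted p = 0.000283; its window overlaps another). Cxadr, a tight junction receptor (0.37, adjusted p = 0.00865), and Ctnna1, the alpha-catenin that links E-cadherin to actin (0.34, adjusted p = 0.0228), rose as well. Krt19, another simple keratin, fell from 25.3 ± 3.07 to 16.7 ± 1.497 CPM (-0.60, adjusted p = 6.37e-06), and so did Rab25, a GTPase of apical recycling (-0.33, adjusted p = 0.0142, overlapping window). The claudin genes Cldn3 (0.04), Cldn4 (-0.27, adjusted p = 0.0917) and Cldn7 (0.18) did not pass. Of the calls in these 2 lists, those of Ovol3 and Krt18 held in all 14 alternatives. Those of Esrp2, Cxadr and Ctnna1 were each lost in 1 of 14, the fit without wildtype library 1. The adjusted p-values there were 0.0935 (Esrp2), 0.122 (Cxadr) and 0.128 (Ctnna1). Tfcp2l1 and Rab25 were lost in that fit too, with adjusted p-values of 0.0858 and 0.0868, and each was lost in 5 of 14 alternatives. Both also failed with DESeq2 size factors in edgeR, with DESeq2 and without knockout library 2 or 3. Krt19 was lost with loess offsets (-0.27, adjusted p = 0.0615).

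Other factors of epithelial identity split between gains and losses. Of 12, 3 rose and 4 fell, with a median of 0.08, where 6.36% of all tested windows rose and 20.2% fell. Tfap2a, a factor of ectoderm and skin, rose from 67.7 ± 8.11 to 114 ± 11.7 CPM (log2 change 0.76, adjusted p = 3.44e-09), and Trp63, the regulator of stratified epithelia, from 21.9 ± 1.93 to 30.8 ± 4.601 CPM (0.50, adjusted p = 0.00013). Gata3, a factor of luminal epithelia and also of T cells, fell from 19.0 ± 1.84 to 8.38 ± 0.302 CPM (-1.18, overlapping window), and Foxa2, a factor of endoderm, from 43.95 ± 2.98 to 29.7 ± 1.26 CPM (-0.56). Tfap2c fell too (-0.38, adjusted p = 0.00805), a call that was lost in 4 of 14 alternatives (highest adjusted p = 0.133), whereas Tfap2a, Trp63, Gata3 and Foxa2 kept theirs. Klf4 (0.19) and Klf5 (0.23) did not pass.

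Factors that repress epithelial genes during epithelial-mesenchymal transition (EMT) mostly did not pass. Of 10, none rose and 2 fell, a share close to the 20.2% of all tested windows that fell, with a median of -0.23. With library totals 2 rose and 5 fell, where 11.8% of all windows rose and 21.4% fell. Twist1 had 18.1, 17.3 and 16.1 CPM in wildtype and 7.34, 6.51 and 9.29 CPM in knockout (a log2 change of -1.15, SE 0.141, adjusted p = 6.03e-15). Prrx1 had 21.1, 20.004 and 21.1 CPM in wildtype and 9.34, 8.72 and 13.4 CPM in knockout (-0.99, adjusted p = 7.95e-13). At both genes every knockout library was far below every wildtype library. Snai1 (-0.27, adjusted p = 0.0874), Snai2 (0.23, adjusted p = 0.143) and Zeb2 (-0.43, adjusted p = 0.117) did not pass, and Zeb1, at 0.697 CPM in a window that shares bases with another, was too low to read.

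**Figure D5:**
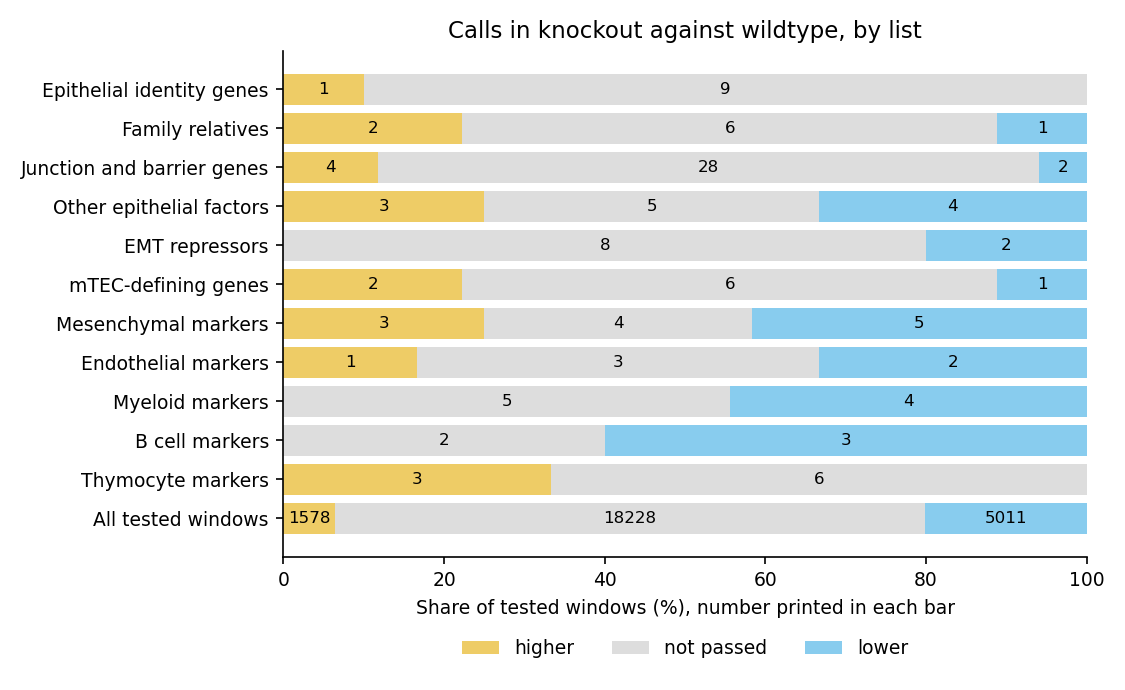
Share of tested windows called higher, lower or not passed in knockout against wildtype, for each list and for all tested windows; the number of windows is printed in each bar. The epithelial identity genes have 1 higher and 9 not passed of 10, and the EMT repressors 2 lower and 8 not passed of 10.

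Markers of other cells that a sort could carry along were called in both directions, where 6.36% of all tested windows rose and 20.2% fell. Of 9 tested thymocyte markers 3 rose and none fell, with summed levels of 38.0 to 41.3 CPM in wildtype and 43.9 to 50.4 CPM in knockout for the list of 10; with library totals 1 rose, with loess offsets 6, and without single libraries 1 to 4. Of 5 B cell markers 3 fell (57.2 to 58.3 against 36.4 to 38.1 CPM), and of 9 myeloid markers 4 fell (144 to 155 against 114 to 128 CPM). With loess offsets 1 B cell marker fell, and 3 myeloid markers rose and 2 fell. Of 6 endothelial markers 1 rose and 2 fell (42.5 to 45.5 against 34.4 to 38.5 CPM), and of 12 mesenchymal markers 3 rose and 5 fell (273 to 285 against 234 to 258 CPM). No marker in these lists was at 0. The summed level of the 10 epithelial identity genes was 1246 to 1292 CPM in wildtype and 1313 to 1606 CPM in knockout. The part of other cells in the change at Ehf was not tested.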

How the data were processed

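Promoter accessibility was measured by ATAC-seq in 6 libraries. The deposited values are raw counts per gene window, made by the authors on mm10 with featureCounts, as the submitters' processing notes name them; the aligner, the handling of duplicates, any read shift and the counting options were not given in the sources used here. Symbols came from the library tables, whose counts equalled the series table in all 6. Windows ran from about 3000 bases upstream to 2000 downstream of a gene start.

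Counts were tested with edgeR 4.0.16 (R 4.3.3; filterByExpr, TMM, robust glmQLFit and glmQLFTest, Benjamini-Hochberg at 0.05), which kept 24817 windows, all 10 members included; the biological coefficient of variation was 10.9%. The standard error is the log2 fold change divided by the root of the F statistic. The function was tested on simulated data. Ratios used counts plus 0.5 and exact permutation in SciPy 1.17.1. Alternatives were DESeq2 1.42.0, limma 3.58.1 (voom with sample weights), other scalings and filters, a replicate block and leaving out each library. Members and gene lists were chosen with earlier results of these data known. All 10 members, the called genes of each list (at most 6 by absolute log2 fold change), the nearest windows and the 3 most like Ehf were to be named; other names were added after their values were seen, and some genes of the lists are not reported here. Replicates differed beyond counting noise (chi-square per degree of freedom 1.86 to 6.76). Counting error was at most 9.49% per library for Grhl2 and 3.58% for the others; it covers reads, which are not independent molecules.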

Additional observations from a re-analysis of the deposited data

How the results depend on the processing

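With library totals only, 2937 of all windows were higher, against 1578 with TMM, and with loess offsets 4320, with a mean count of at least 50 3937, with limma-voom 4738 and with the replicate block 2824; leaving out single libraries gave 689 (without wildtype library 1) to 3177 (without knockout library 1). The lower windows stayed within 1.5 times of 5011. Higher windows of the 10 epithelial identity genes numbered 1 with TMM, 5 with library totals, 4 with loess offsets, 6 with a mean count of at least 50, 2 with limma-voom and 0 to 1 without single libraries (0 without wildtype library 1). Lower windows numbered 0, and 1 with library totals, loess offsets and limma-voom and 0 to 1 without single libraries; it was Elf3 each time. The cause of these moves was not tested.

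Family relatives: 2 higher (1 to 2 without single libraries) and 1 lower (0 with DESeq2 size factors in edgeR, 0 with DESeq2, 0 to 1 without single libraries). Junction genes: 4 higher, against 13 with library totals, 10 with loess offsets, 8 without a filter, 16 with a mean count of at least 50, 8 with DESeq2, 8 with limma-voom, 8 with the replicate block and 1 to 6 without single libraries; 2 lower, against 4 with library totals, 1 with DESeq2 size factors, 6 with loess offsets, 1 with DESeq2, 8 with limma-voom and 1 to 5 without single libraries. Other epithelial factors: 3 higher, against 6 with library totals, 6 with a mean count of at least 50, 5 with limma-voom and 5 with the replicate block. EMT repressors: 0 higher, against 2 with library totals, 2 with loess offsets, 2 with a mean count of at least 50, 1 with DESeq2, 1 with limma-voom, 1 with the replicate block and 0 to 1 without single libraries; 2 lower, against 5 with library totals, 4 with loess offsets, 4 without a filter, 4 with a mean count of at least 50, 5 with limma-voom and 2 to 5 without single libraries.

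The sign turned for 3 of the 10 genes, none of which passed, and for 1 ratio. Grhl1 was -0.030 with library totals, -0.11 with loess offsets, -0.036 without a filter, -0.091 with limma-voom, -0.00015 with the replicate block and -0.13 to 0.075 without single libraries. Grhl2 was 0.0040 with DESeq2 size factors, 0.37 with loess offsets, 0.0030 with DESeq2 and -0.13 to 0.020 without single libraries. Ovol1 was -0.029 with loess offsets, -0.037 with limma-voom and -0.075 to 0.13 without single libraries. The log2 ratio of Grhl2 to Grhl1 moved by -0.19 to 0.077 without single libraries; the other 5 ratios kept their sign. The labels do not say that the replicate numbers pair the samples, and they were not taken to. Same-numbered libraries deviated together for numbers 1 (r = 0.37) and 3 (0.39) but not 2 (0.03). Wildtype library 3 and knockout library 2 did so nearly as much (0.31), and the remaining pairs ranged from -0.44 to 0.003. With the replicate block in edgeR, Ehf had 0.45 (adjusted p = 0.000128) and no other of the 10 passed. The sign-flip test over 3 numbered pairs cannot go below 0.25.

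Depth limits Grhl2 only, at 111 to 145 counts per library. Kat7 did not pass without wildtype library 1 or without wildtype library 3 (highest adjusted p = 0.0643).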

Other observations

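Mesenchymal genes did not move as one. Thy1, a surface glycoprotein of fibroblasts and also of thymocytes, fell from 42.3 ± 2.95 to 8.66 ± 0.929 CPM (log2 change -2.29, edgeR adjusted p = 5.1e-71), and the growth factor receptor gene Pdgfrb fell from 36.4 ± 2.97 to 16.2 ± 0.345 CPM (-1.17). The collagen gene Col1a2 also fell (-1.34). Acta2, the smooth muscle actin gene, rose from 30.4 ± 4.97 to 67.0 ± 7.36 CPM (1.14, adjusted p = 6.14e-22), as did the proteoglycan genes Dcn (12.0 ± 2.29 to 22.3 ± 2.10 CPM, 0.89) and Lum (0.67). All 6 kept their calls in all 14 alternatives.

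Among vascular genes Kdr, a receptor for VEGF (8.56 ± 0.607 to 3.32 ± 0.594 CPM, -1.37), and Pecam1 (-1.33) fell while the angiopoietin receptor gene Tek rose (10.7 ± 1.18 to 17.5 ± 1.80 CPM, 0.72). Of the list of thymocyte markers, Cd4 (0.73), Cd8a (0.86) and Ptprc (0.89) rose at levels of 1.97 to 4.38 CPM. The 6 other tested markers of that list did not pass, with values from -0.37 (Rag2) to 0.52 (Cd8b1). Cd3e was at 0.02. The call of Cd4 was lost in 7 of 14 alternatives and that of Cd8a in 1 of 14 (highest adjusted p = 0.1001). The call of Ptprc was lost in 4 and kept in 9 (highest adjusted p = 0.193). Ptprc was not tested with a mean count of at least 50.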
